A study of Mus musculus with 21 samples.

Results

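Type 1 conventional dendritic cells (cDC1) are the dendritic cells that take up dying cells and present their antigens on MHC class I, and they depend on the transcription factors IRF8 and BATF3. In the thymus they show self antigens to developing T cells, and in the spleen they sample antigens from blood and dying cells and prime CD8 T cells. Immature cDC1 can enter maturation without infection, raising the chemokine receptor CCR7 and the capacity to migrate and to stimulate T cells. How far the resting, CCR7-negative state differs between the thymus and the spleen was the question of the comparison described here.

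The comparison used 9 of the 21 RNAseq libraries of the series, chosen by their labels as immature cDC1 of the thymus (4 libraries) or of the spleen (5 libraries). All came from C57BL/6 mice aged 6 to 8 weeks, with no treatment or engineered allele named in the labels, and each library was made from cells of pooled mice. CD11c-positive cells were enriched on beads and sorted as CD11c+ CD24+ CD11b- cells that lacked B220, DX5, Ly6c, Ly6g and F4/80, and immature cells were CCR7- and ESAM-. The other libraries were mature (CCR7+ ESAM+) thymic cDC1 (3) and cDC2 (3), and immature cDC2 of the thymus (3) and of the spleen (3), which were sorted as B220-, CD24-, CD11b+ and CD11c+ cells.

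Splenic libraries 4 and 5 carried the same pool number, index and lane. Their counts differed by a chi-square of 2.44 per degree of freedom, where the remaining 9 splenic cDC1 pairs gave 25.0 to 176, so they were averaged into 1 sample. The first splenic library carried that pool number on another lane and was kept apart. The thymic libraries 3 and 4 also carried the same pool number, index and lane. They differed more than the 5 other thymic pairs (92.8, against 22.8 to 86.1) and were kept apart. Each group thus had 4 samples, n = 4 throughout, and ± after a mean gives the SD over them. Splenic sample 3 stood furthest from the others of its group. So did thymic library 3, with 56.1 to 92.8 against 22.8 to 37.3 for thymic pairs without it. Nothing in the labels ties the pools to separate cell isolations beyond their numbers, so p-values measure the spread between these libraries, part of which may be technical. The 9 libraries held 15612117 to 34449934 reads in genes.

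Values are normalized read counts, that is, reads in a gene divided by a size factor of the library. A gene was called different when the limma test on log2(normalized read count + 1), fitted over all groups, gave a p below 0.1 after Benjamini-Hochberg adjustment and the means were more than 2-fold apart. Fold changes are given on this log2 scale, thymic over splenic, ± the standard error (SE), and understate the change of genes with few reads. "Rose" and "fell" below mean higher or lower in thymic than in splenic cDC1 and passing this test. In bulk samples of this kind, fewer cells expressing a gene and less RNA per cell cannot be told apart.

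Both groups carried the cDC1 program at high levels. Of the 18 genes of the cDC1 identity list, 1 rose and 2 fell (median log2 fold change -0.05). Xcr1, the receptor for the chemokine XCL1 that marks cDC1, measured 20274, 20744, 16194 and 19180.1 in thymic cDC1 against 12175, 15629, 8385 and 14077 in splenic cDC1 (log2 fold change 0.63 ± 0.37, adjusted p = 0.364). All 4 thymic values of Xcr1 were above all 4 splenic values, but the difference did not pass the test. Irf8 measured 54210 ± 3833 against 46580 ± 9947 and Batf3 1427 ± 292 against 1560 ± 502 (adjusted p = 0.616 and 0.897), and neither passed the test. Cadm1, an adhesion molecule of cDC1, was at 5655 ± 596 against 9390 ± 1885 and also did not pass.

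The members that did pass were surface receptors. Itgae, which encodes CD103, the integrin alpha chain that pairs with beta 7 and binds E-cadherin, measured 15277, 17568, 17126 and 14959 in thymic cDC1 against 1760.3, 1480.4, 1845 and 1349.5 in splenic cDC1 (log2 fold change 3.34 ± 0.34, adjusted p = 6.11e-07). Cd8a, the chain that names the CD8+ dendritic cells of mouse lymphoid organs, measured 6281, 6675, 8144 and 5341 in thymic cDC1 against 16834, 16442, 15967 and 16368 in splenic cDC1 (log2 fold change -1.33 ± 0.20, adjusted p = 5.55e-05). Clec9a, the receptor for actin exposed on dead cells, measured 7269, 7125, 6139 and 7333 in thymic cDC1 against 14642, 16581, 10595 and 15113 in splenic cDC1 (log2 fold change -1.01 ± 0.20, adjusted p = 0.00119). For each of these 3 genes the 4 thymic values lay entirely on 1 side of the 4 splenic values. Clec9a, whose change was close to 2-fold, lost its call when thymic library 3 (-0.96) or splenic sample 1, 2 or 4 (-0.99, -0.93 and -0.98) was left out.

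Of the genes of markers that immature cDC1 were sorted to lack, Ccr7, Esam and Itgam were low in both tissues. Those of B220, DX5 and Ly6c are not described here. Ccr7 was at 709.6, 556, 966 and 624 in thymic and 409.7, 261, 726 and 341 in splenic cDC1, against 92666, 108484 and 129531 in mature thymic cDC1. Esam was at 19.4, 25.8, 29.6 and 19.2 in thymic and 36, 16.8, 64.6 and 42.5 in splenic cDC1, against 1167, 1125 and 1323 in the mature cells. Neither passed the test between thymus and spleen (log2 fold change 0.79, adjusted p = 0.0839, and -0.62, adjusted p = 0.531), and their values overlapped. Itgam, which encodes CD11b, stayed at 6.76, 15, 17.2 and 36.4 in thymic and 60.7, 30.6, 36.9 and 27.4 in splenic cDC1, against 1429, 1802 and 1512 in splenic cDC2.

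Of 14970 genes tested, 1313 (8.77%) were called. In thymic cDC1, 637 genes (4.26% of those tested) rose and 676 (4.52%) fell. Counts of called members of gene lists, above and below, are to be read beside these shares. Changes over 8-fold were seen for 237 genes, 128 higher and 109 lower. In 1180 of the called genes (89.9%) the samples of the groups did not overlap, against 2658 (17.8%) of all genes tested. The median log2 fold change of all genes tested was 0.0043. Within lane 5 (1 thymic and 2 splenic samples) 1308 of the 1313 genes had the direction of the call, and within lane 8 (3 and 2 samples) 1313 did, which is no separate check, because these are the samples that the calls rest on.

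**Figure D1:**
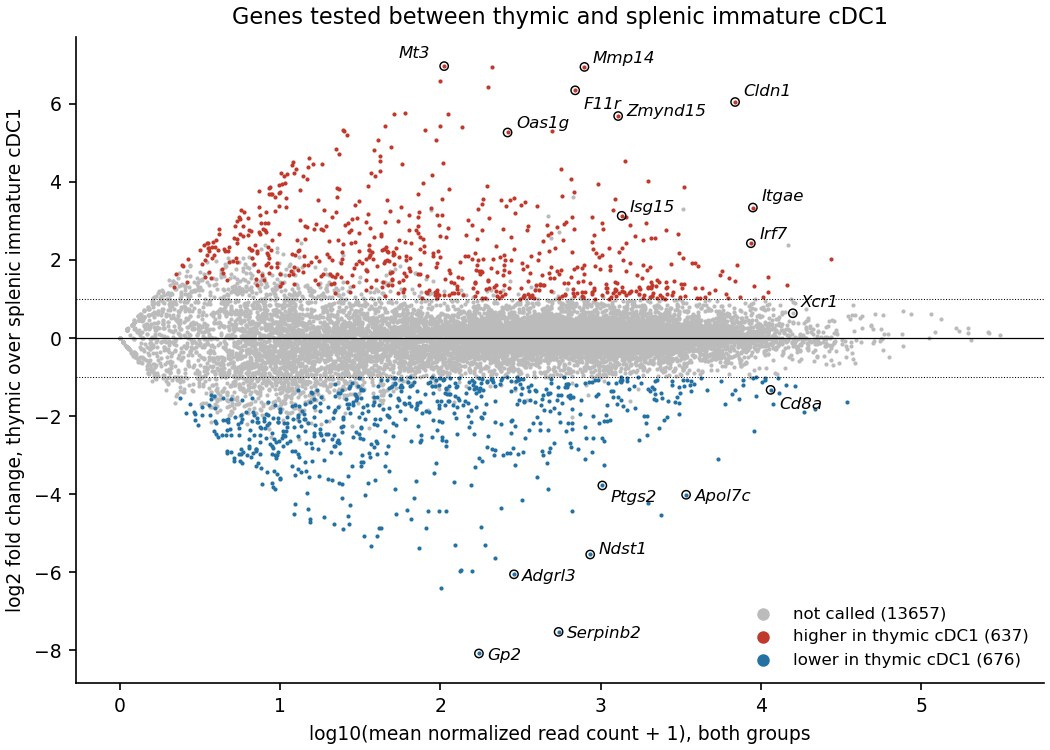
Each point is 1 of the 14970 genes tested. The horizontal axis gives log10 of the mean normalized read count + 1 over both groups, the vertical axis the log2 fold change of thymic over splenic immature cDC1, and dotted lines mark 2-fold. Red points (637) rose and blue points (676) fell in thymic cDC1. Circled genes are named in the text, with Mmp14 and Mt3 near the top, Gp2 and Serpinb2 at the bottom and Xcr1 between the dotted lines.

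The largest changes were found in genes that 1 tissue expressed and the other nearly lacked. Mmp14 encodes the membrane-bound matrix metalloprotease MT1-MMP, which cleaves collagen and other surface and matrix proteins (GRCm38, chr14:54431612-54445364, plus strand, 11 merged exons). It measured 1430.2, 1796, 1727 and 1331 in thymic cDC1 against 18.5, 7.89, 19.4 and 6.27 in splenic cDC1 (log2 fold change 6.94 ± 0.34, adjusted p = 1.73e-11). The lowest thymic value was far above the highest splenic one. Mt3 encodes a metallothionein, a small cysteine-rich protein that binds zinc and copper (chr8:94152607-94154146, plus strand). It measured 114, 192, 348 and 181 in thymic cDC1 against 1.03, 0, 1.85 and 0 in splenic cDC1, where the splenic samples together held 3 reads. The ratio of the group means was 290.0, with a counting interval (exact Poisson, 95%) of 99.3 to 1410.

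Several of the strongest thymic genes encode proteins of cell contacts. Cldn1, which encodes the tight junction protein claudin 1 (chr16:26356642-26371841, minus strand), measured 13448, 14114, 11895 and 14973 in thymic cDC1 against 295, 169.6, 177 and 196 in splenic cDC1 (log2 fold change 6.05 ± 0.27, adjusted p = 3.79e-12). F11r, which encodes the junctional adhesion molecule JAM-A, measured 1209, 1425, 1476 and 1370.3 in thymic cDC1 against 16.5, 9.86, 20.3 and 18.8 in splenic cDC1 (log2 fold change 6.34 ± 0.18, adjusted p = 5.8e-15). Ank2, which encodes ankyrin B, a linker of membrane proteins to the cytoskeleton, measured 286, 262, 179 and 339 in thymic cDC1 against 9.26, 2.96, 4.62 and 5.44 in splenic cDC1. Bcar3, a signaling adaptor downstream of integrins, measured 101, 158, 137 and 71.7 in thymic cDC1 against 1.03, 0, 3.69 and 0.969 in splenic cDC1. For all 4 the thymic and splenic values were far apart, and Ank2 and Bcar3 stayed below 10 in every splenic sample.

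The remaining genes at the top were of different kinds. Shisa7, known as a modulator of receptors in neurons, measured 416, 445, 463 and 326 in thymic cDC1 against 1.03, 2.96, 4.62 and 1.76 in splenic cDC1 (log2 fold change 6.94 ± 0.52, adjusted p = 8.31e-09). Slfn1, a Schlafen family gene whose reads may be shared with its close relatives, measured 198, 202, 199.7 and 185 in thymic cDC1 against 0, 1.97, 2.77 and 0.637 in splenic cDC1. Padi1 encodes an enzyme that converts arginine in proteins to citrulline, and its counts were 419, 416, 325 and 399 in thymic cDC1 against 5.15, 1.97, 9.24 and 1.27 in splenic cDC1. These 3 genes were expressed in every thymic library and were below 10 in every splenic sample.

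Zmynd15, which encodes a zinc finger protein known as a transcriptional repressor in germ cells, measured 2112, 2586, 3449 and 1954 in thymic cDC1 against 50.4, 36.5, 54.5 and 48.1 in splenic cDC1 (log2 fold change 5.69 ± 0.24, adjusted p = 3.79e-12). It overlaps Cxcl16 on the opposite strand over 12.5% of its exon bases, and the strand setting of the counting is not stated, so reads of this stretch cannot be assigned with certainty. Btnl4, a butyrophilin-like gene, measured 187, 179.9, 153 and 248 in thymic cDC1 against 0, 9.86, 5.54 and 4.18 in splenic cDC1 (log2 fold change 5.44 ± 0.87, adjusted p = 0.000141). Ccl17, which encodes a ligand of the chemokine receptor CCR4, measured 186, 214, 312 and 159 in thymic cDC1 against 6.18, 0.986, 0.924 and 8.01 in splenic cDC1 (log2 fold change 5.74 ± 0.61, adjusted p = 1.03e-06). These genes were chosen among those without overlap between the groups.

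**Figure D2:**
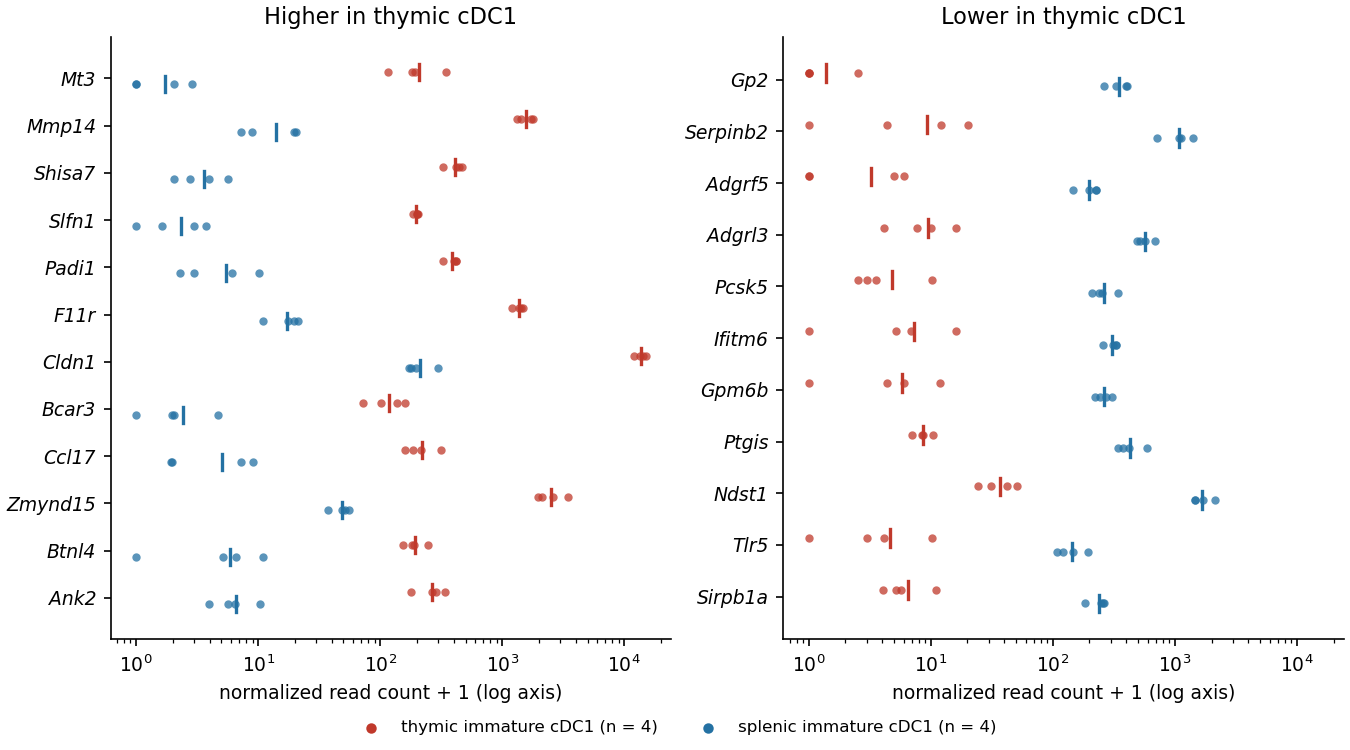
Normalized read count + 1 (log axis) in each sample for the 12 genes with the largest positive log2 fold changes (left) and 11 of the 12 with the largest negative ones (right) among called genes without overlap between groups and with a mean of at least 100 in the higher group. Red points are the 4 thymic and blue points the 4 splenic samples, and vertical bars are group means. In every row the red and the blue points are apart, as the choice of genes required.

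At the other end, Gp2 was expressed in splenic cDC1 and nearly absent from thymic cDC1. It encodes glycoprotein 2, a membrane protein known from M cells and the pancreas as a receptor for fimbriated bacteria (chr7:119442537-119459285, minus strand, 11 merged exons). It measured 0, 0, 1.56 and 0 in thymic cDC1 against 401, 261, 395 and 326 in splenic cDC1, that is, 1 read in all in the 4 thymic libraries together. The ratio of splenic to thymic means was 887, with a counting interval of 159 to 35000. Serpinb2, which encodes the protease inhibitor PAI-2 and shapes T helper responses in mouse models, measured 3.38, 19.2, 0 and 11.1 in thymic cDC1 against 1084, 1412, 710.2 and 1129.6 in splenic cDC1 (log2 fold change -7.53 ± 0.89, adjusted p = 3.77e-06). Every splenic value was far above the highest thymic value.

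Adhesion G protein-coupled receptors were among the genes that fell. Adgrf5 (listed in the files as Gpr116) measured 0, 5, 0 and 4.04 in thymic cDC1 against 226, 224, 198 and 146 in splenic cDC1 (log2 fold change -6.39 ± 0.71, adjusted p = 1.8e-06), and Adgrl3 (Lphn3), a latrophilin, 6.76, 15, 3.12 and 9.09 in thymic cDC1 against 691, 519, 565 and 489 in splenic cDC1 (log2 fold change -6.05 ± 0.54, adjusted p = 8.16e-08). Pcsk5, which encodes a proprotein convertase, measured 2.53, 9.16, 1.56 and 2.02 in thymic cDC1 against 253, 237, 341 and 208 in splenic cDC1, and Ptgis, prostacyclin synthase, 7.6, 7.5, 9.36 and 6.06 in thymic cDC1 against 419, 338, 594 and 377 in splenic cDC1. None of these 4 genes reached 20 normalized reads in any thymic library.

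The other strongly splenic genes included several that splenic cDC2 also expressed. Ndst1, an enzyme of heparan sulfate sulfation, measured 49.8, 40.8, 23.4 and 30.3 in thymic cDC1 against 1458, 1706, 2124 and 1452 in splenic cDC1 (log2 fold change -5.54 ± 0.60, adjusted p = 1.2e-06). Gpm6b, a membrane proteolipid, measured 3.38, 10.8, 0 and 5.05 in thymic cDC1 against 274, 307, 221 and 242 in splenic cDC1. Tlr5, the receptor for flagellin, measured 9.29, 0, 3.12 and 2.02 in thymic cDC1 against 121, 145, 195 and 106 in splenic cDC1. Sirpb1a, an activating relative of SIRPα whose reads may be shared with its neighbours, measured 4.22, 9.99, 4.68 and 3.03 in thymic cDC1 against 248, 184, 259 and 264 in splenic cDC1. Ifitm6, of the interferon-induced transmembrane family, measured 5.91, 4.16, 0 and 15.2 in thymic cDC1 against 331, 255, 332 and 309 in splenic cDC1. The splenic cDC1 mean was 57% of the splenic cDC2 mean for Ndst1, 54.3% for Gpm6b, 24.5% for Tlr5, 11% for Ifitm6 and 2.74% for Sirpb1a.

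Markers of cDC2 moved in both directions between the tissues. Of 12 members of the cDC2 list, 2 rose (16.7%) and 7 fell (58.3%) in thymic cDC1, beside 4.26% and 4.52% of all genes tested. The median log2 fold change of the list was -1.56. Its summed level was 7097 to 7604 in thymic and 9050 to 9806 in splenic cDC1. Sirpa, which encodes the inhibitory receptor for CD47 and marks cDC2, measured 260.2, 265, 173 and 236 in thymic cDC1 against 749, 1126, 1548 and 946 in splenic cDC1 (log2 fold change -2.19 ± 0.22, adjusted p = 4.28e-07). These were 1.53% of its mean in thymic cDC2 and 4.81% of its mean in splenic cDC2. Irf4, the transcription factor of cDC2 and of maturing cells, fell from 1410.3, 1174, 1412 and 989 in splenic to 272, 206, 78 and 199 in thymic cDC1 (log2 fold change -2.84 ± 0.26, adjusted p = 1.53e-07). Cd4, Clec4a4 and Dtx1, the last a Notch target, also fell (log2 fold changes -2.55, -3.28 and -4.63), at 11.1%, 4.05% and 6.29% of their splenic cDC2 means in splenic cDC1. The share of Dtx1 was 3.47% without splenic sample 3, its highest. Mgl2 and Clec10a, the macrophage galactose lectins, rose instead (Mgl2 229, 191, 170.1 and 132 in thymic cDC1 against 12.4, 0.986, 2.77 and 6.77 in splenic cDC1, Clec10a 86.2, 88.3, 56.2 and 75.8 in thymic cDC1 against 22.6, 13.8, 11.1 and 16.8 in splenic cDC1), at 1.01% and 1.99% of their thymic cDC2 means. The part that cDC2 among the sorted cells had in these differences was not tested.

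Interferon-stimulated genes rose in large part. These are the transcripts that cells raise when type I or type III interferon binds its receptor, and many of their products act against viruses. Of 52 members tested, 37 rose in thymic cDC1, none fell and 15 did not pass the test, and 48 had a positive log2 fold change, with a median of 1.76 beside 0.0043 over all genes. The share that rose, 71.2%, compares with 4.26% of all genes tested. This list was chosen with results of these data known.

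Isg15, a ubiquitin-like modifier, measured 1969, 2298, 3417 and 2049 in thymic cDC1 against 287, 252, 223 and 329 in splenic cDC1 (log2 fold change 3.13 ± 0.20, adjusted p = 8.5e-10). Irf7, the transcription factor that amplifies the interferon response, measured 12924, 16099, 17601 and 11736 in thymic cDC1 against 2092, 2501, 3742 and 2612 in splenic cDC1 (log2 fold change 2.43 ± 0.32, adjusted p = 1.63e-05).

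Enzymes that sense or act on double-stranded RNA rose strongly. Oas1g, an oligoadenylate synthetase that activates RNase L, measured 409.7, 519.7, 524 and 590.2 in thymic cDC1 against 15.4, 8.88, 9.24 and 17.3 in splenic cDC1 (log2 fold change 5.26 ± 0.31, adjusted p = 3.18e-10). Oas1a measured 1129, 1332, 1579 and 1041 in thymic cDC1 against 53.5, 95.7, 146 and 98.4 in splenic cDC1 (log2 fold change 3.74 ± 0.33, adjusted p = 9.24e-08), and Oas3 1074, 1118, 1064 and 977 in thymic cDC1 against 65.9, 82.8, 108 and 82.5 in splenic cDC1 (log2 fold change 3.65 ± 0.25, adjusted p = 2.52e-09). Oas1a and Oas1g are near-identical neighbours, so the division of reads between them is uncertain. Oasl1, a relative known to limit translation of Irf7, measured 1628, 2140.5, 2058 and 1378 in thymic cDC1 against 99.9, 102, 172 and 94.9 in splenic cDC1. In all 4 genes the thymic values were far above the splenic ones.

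Ifi204, of the DNA-sensing PYHIN family, measured 3278, 4177, 3449 and 3932 in thymic cDC1 against 247, 241, 169.9 and 257 in splenic cDC1 (log2 fold change 4.03 ± 0.19, adjusted p = 1.59e-11). Ifi44 measured 2032, 2616, 1759 and 2698 in thymic cDC1 against 199.7, 260.4, 125 and 194 in splenic cDC1. Ddx58, which encodes the RNA sensor RIG-I, rose from 108, 122, 90.5 and 80.3 to 399.6, 364, 329 and 536 (log2 fold change 2.0 ± 0.18, adjusted p = 1.31e-07), and Ifih1, which encodes MDA5, from 1064, 1065, 668 and 969.9 to 2229, 2284, 1578 and 2406 (log2 fold change 1.18 ± 0.17, adjusted p = 5.76e-05). Bst2, which encodes tetherin, measured 2466, 3304, 3856 and 2449.6 in thymic cDC1 against 753, 677, 1246 and 940.2 in splenic cDC1. The 15 members that did not pass included Cxcl9 with 5681, 6441, 6541 and 7159 in thymic cDC1 against 14674, 13126, 7607 and 11713 in splenic cDC1, a chemokine more known as a target of interferon-γ.

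**Figure D3:**
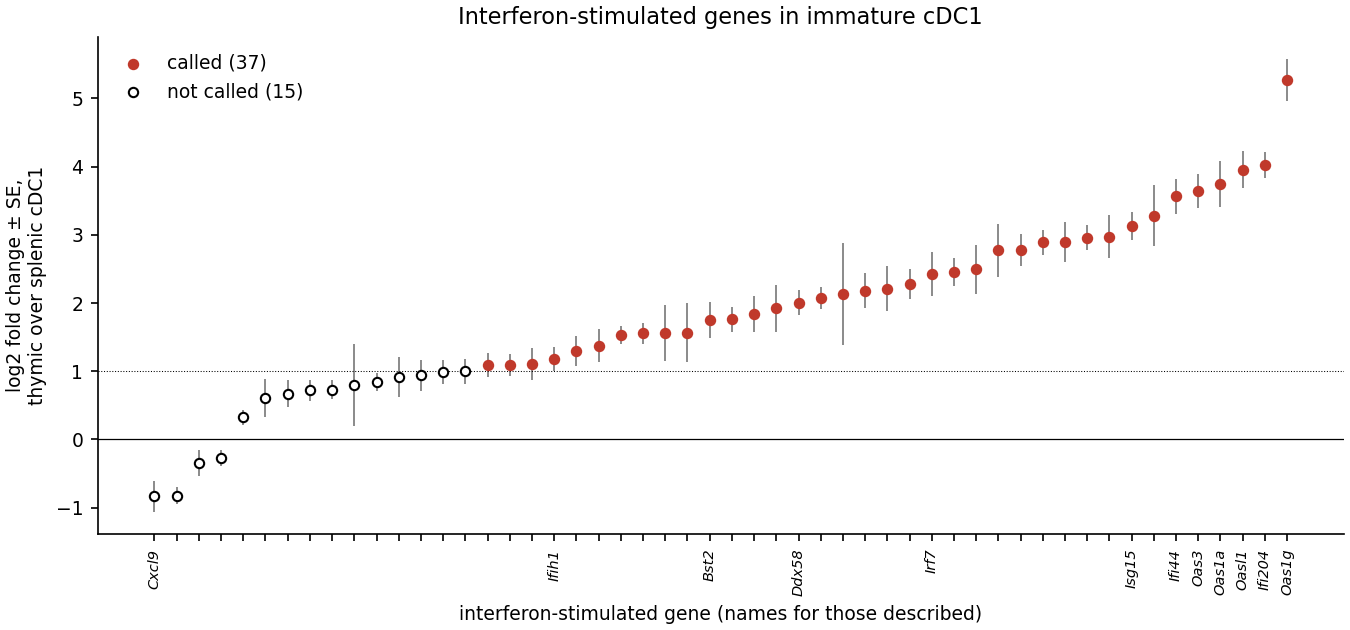
Log2 fold change of thymic over splenic immature cDC1 for the 52 interferon-stimulated genes tested, in rising order, with bars of 1 SE and with names for genes described in the text. Filled points (37) were called and open points (15) were not, and the dotted line marks 2-fold. Oas1g is highest and Cxcl9 is lowest.

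Because these genes moved together, their promoters are shown. Interferon-responsive promoters often hold the interferon-stimulated response element, a pair of GAAA half-sites. RefSeq promoter windows (GRCm38, 250 bases before to 50 after the start) were found for 27 of the 37 genes that rose. Of these, 17 (63.0%) held GAAA, any 2 bases and GAAA again on either strand, against 380 of 9871 (3.85%) tested genes with a window. The motif was in 4 of 13 windows of the list members that did not pass, in 43 of 446 (9.64%) windows of all genes that rose and in 31 of 471 (6.58%) windows of all that fell. A match describes the letters and does not show binding. The stretches below, 80 bases each before the start and read 5′ to 3′ along the gene, show matches in genes described above and in Ifit1, Ifit3 and Rsad2, further members of the list that rose, with the bases of the motif in capitals (TTTC in place of GAAA where it lies on the opposite strand, and longer runs where matches overlap).
Isg15 (chr4:156200840-156200919, minus strand): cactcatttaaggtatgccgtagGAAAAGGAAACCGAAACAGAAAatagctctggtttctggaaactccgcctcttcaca
Oas1a (chr5:120907526-120907605, minus strand): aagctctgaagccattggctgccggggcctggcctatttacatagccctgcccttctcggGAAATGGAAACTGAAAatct
Oas1g (chr5:120887614-120887693, minus strand): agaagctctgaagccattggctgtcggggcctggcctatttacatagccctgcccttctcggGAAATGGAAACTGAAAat
Oas3 (chr5:120777690-120777769, minus strand): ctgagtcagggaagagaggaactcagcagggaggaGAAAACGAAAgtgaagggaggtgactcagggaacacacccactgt
Ifit1 (chr19:34640769-34640848, plus strand): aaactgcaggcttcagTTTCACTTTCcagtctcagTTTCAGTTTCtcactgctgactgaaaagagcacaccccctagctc
Ifit3 (chr19:34583372-34583451, plus strand): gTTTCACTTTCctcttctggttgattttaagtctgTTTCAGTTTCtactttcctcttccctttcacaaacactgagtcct
Bst2 (chr8:71537552-71537631, minus strand): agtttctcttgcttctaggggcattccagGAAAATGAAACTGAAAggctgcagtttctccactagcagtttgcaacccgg
Rsad2 (chr12:26456528-26456607, minus strand): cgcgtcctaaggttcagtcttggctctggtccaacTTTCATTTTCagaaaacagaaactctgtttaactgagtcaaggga
The stretches of Oas1a and Oas1g share the same capitals close to the start, and Ifit1 and Ifit3 hold the same pair of matches. Isg15, Bst2, Oas1a and Oas1g hold overlapping matches that form a run of half-sites. Irf7, Ifi44 and Oasl1, which also rose, held no match in this window.

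The GTPases known to be induced mainly by interferon-γ did not follow 1 direction. Of 14 tested, 3 rose and 3 fell (median log2 fold change 0.30). Gbp4 measured 103, 142, 82.7 and 90.9 in thymic cDC1 against 655, 444, 315 and 404 in splenic cDC1 (log2 fold change -2.09 ± 0.23, adjusted p = 1.2e-06), and Gbp2 43.9, 58.3, 85.8 and 126 in thymic cDC1 against 273, 273, 229 and 232 in splenic cDC1 (log2 fold change -1.77 ± 0.22, adjusted p = 7.69e-06). Irgm1, of the immunity-related GTPases that guard against intracellular pathogens, rose from 246, 290.0, 206 and 301 to 737, 989, 691 and 621. Reads of these gene families may be shared between near-identical copies.

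Of the 6 interferon receptor chains tested, Ifnlr1 rose, Ifngr1 fell, and Ifnar1, Ifnar2, Ifngr2 and Il10rb stayed within 2-fold. Ifnlr1, the specific chain of the receptor for type III interferon, measured 1243, 1342, 922 and 1243 in thymic cDC1 against 159.6, 219.9, 161 and 148 in splenic cDC1 (log2 fold change 2.78 ± 0.24, adjusted p = 5.83e-08). Ifngr1, the ligand-binding chain of the receptor for interferon-γ, measured 5939, 6615, 4770.2 and 5435 in thymic cDC1 against 19228, 18982, 16309 and 18482 in splenic cDC1 (log2 fold change -1.69 ± 0.16, adjusted p = 1.76e-07). All 4 thymic values of Ifnlr1 were above, and all 4 of Ifngr1 below, every splenic value. Over the 51 cytokine and growth factor receptors tested, 3 rose and 9 fell (median -0.01). Il6st, the shared signaling chain gp130, fell from 4188, 4958, 4137 and 4437 to 1980.1, 1604, 1083 and 1708 (log2 fold change -1.50 ± 0.16, adjusted p = 1.21e-06). Il2rg, the common gamma chain, and Il1r2, the decoy receptor for IL-1, also fell (log2 fold change -1.56 ± 0.22, adjusted p = 3.47e-05 and log2 fold change -1.92 ± 0.45, adjusted p = 0.0058). Flt3, whose ligand sustains dendritic cells, measured 17670 ± 913 against 21090 ± 869 and did not pass (adjusted p = 0.181).

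Several feedback regulators of cytokine signaling rose. Of 32 SOCS, DUSP and NF-κB regulators (median 0.09), 8 rose (25.0%) and 2 fell (6.25%), beside 4.26% and 4.52% of all genes tested. Cish, a suppressor of STAT5 signaling and its target, measured 139, 149.9, 197 and 137 in thymic cDC1 against 0, 2.96, 7.39 and 5.77 in splenic cDC1 (log2 fold change 5.32 ± 0.48, adjusted p = 1.24e-07). Socs3, which restrains signaling through gp130, measured 1793, 1933, 1932 and 1536 in thymic cDC1 against 210.0, 195, 344 and 207 in splenic cDC1 (log2 fold change 2.94 ± 0.35, adjusted p = 4e-06). Tnip3, an inhibitor of NF-κB that binds A20, rose from 12.4, 27.6, 4.62 and 25.2 to 150.4, 123, 93.6 and 66.7, and Dusp4, a phosphatase of MAP kinases, from 146, 125, 187 and 135 to 515, 491, 493 and 515.

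Cytokines and chemokines included genes of both directions. Il6 measured 207, 297, 268 and 274 in thymic cDC1 against 34, 38.5, 15.7 and 45.5 in splenic cDC1 (log2 fold change 3.02 ± 0.29, adjusted p = 2.29e-07). Il1b was highly expressed in both tissues and measured 4963, 6944, 5848 and 6959.6 in thymic cDC1 against 9781, 13483, 12166 and 14213 in splenic cDC1 (log2 fold change -1.01 ± 0.22, adjusted p = 0.00345). Il1b, close to the 2-fold threshold, lost its call without splenic sample 2 or 4 (-0.96 and -0.94) or thymic library 1 or 3 (-0.90 and -0.98). Ltb, which encodes lymphotoxin beta, fell from 308, 367, 799.8 and 379 to 108, 198, 128 and 116. Il12b and Il15 measured 1053 ± 70.4 against 590.5 ± 206 and 582 ± 106 against 425 ± 57.4 and did not reach 2-fold. Of 32 cytokine genes, 3 rose and 4 fell. Of 21 chemokine genes, 3 rose and 1 fell.

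Beside Ccl17, the CCR4 ligand Ccl22 rose from 263, 232, 249 and 284 in splenic to 1825, 1628, 2372 and 1412 in thymic cDC1 (log2 fold change 2.79 ± 0.23, adjusted p = 3.66e-08). Cxcl16, the ligand of CXCR6 that also acts as a scavenger receptor, measured 10460.5, 12064, 13054 and 9403 in thymic cDC1 against 3335, 2734, 3429 and 2679.8 in splenic cDC1 (log2 fold change 1.88 ± 0.18, adjusted p = 2.49e-07), and shares 18.3% of its exon bases with Zmynd15 on the opposite strand. Ccl6 fell (54.1, 54.1, 60.9 and 47.5 in thymic cDC1 against 634, 586, 356 and 552 in splenic cDC1). Ccl22 and Cxcl16 were separated without overlap in all 8 samples.

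Of 32 migration receptors tested, 2 rose (6.25%) and 4 fell (12.5%), beside 4.26% and 4.52% of all genes tested. Cx3cr1, the fractalkine receptor, measured 32.9, 20.8, 32.8 and 20.2 in thymic cDC1 against 129, 192, 246 and 185 in splenic cDC1 (log2 fold change -2.77 ± 0.47, adjusted p = 0.000269), and Ccr1 10.1, 8.33, 9.36 and 23.2 in thymic cDC1 against 54.6, 53.3, 56.3 and 46.6 in splenic cDC1 (log2 fold change -2.08 ± 0.44, adjusted p = 0.00249). S1pr2, a receptor for sphingosine 1-phosphate that restrains migration, rose from 139, 128, 178 and 119 to 340.4, 364, 351 and 372. Cxcr4, the CXCL12 receptor, was lower in all 4 thymic libraries (1727 ± 198 against 3387 ± 287) but stayed within 2-fold.

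Adhesion molecules changed in both directions. Of 46 tested, 7 rose and 8 fell (median -0.15). Beside F11r and Itgae, Epcam, an epithelial cell adhesion molecule also made by some dendritic cells, measured 501, 584, 576 and 663 in thymic cDC1 against 76.2, 37.5, 56.3 and 49.3 in splenic cDC1 (log2 fold change 3.42 ± 0.25, adjusted p = 7.02e-09), and Cdh1, which encodes E-cadherin, 192, 186, 115 and 137 in thymic cDC1 against 25.7, 11.8, 13.9 and 10.3 in splenic cDC1 (log2 fold change 3.33 ± 0.73, adjusted p = 0.00331). Pecam1 fell from 1534, 1846, 1920.0 and 1687 to 357, 294, 245 and 297, and Cadm3, a nectin-like molecule, from 343, 403, 675 and 320.3 to 64.2, 63.3, 31.2 and 53.6. Itgax, which encodes CD11c, measured 20870 ± 1625 against 28720 ± 2445 and did not pass.

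A further membrane-bound matrix protease rose beside Mmp14. Mmp25, a membrane-anchored matrix metalloprotease, measured 728, 782, 793 and 631 in thymic cDC1 against 50.4, 69, 106 and 62 in splenic cDC1 (log2 fold change 3.38 ± 0.27, adjusted p = 2.12e-08). The inhibitor Timp2, which also takes part in activation by MT1-MMP, measured 60, 47.5, 85.8 and 43.5 in thymic cDC1 against 5.15, 43.4, 29.6 and 24.1 in splenic cDC1 and did not pass (adjusted p = 0.155). In all, 4 of 29 members rose and 2 fell.

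Several guidance molecules of the semaphorin system rose, both ligands and receptors. Of 23 tested, 7 rose and 3 fell (median 0.53). Sema6d, a transmembrane semaphorin, measured 1152, 899, 882 and 965 in thymic cDC1 against 14.4, 38.5, 21.2 and 26.6 in splenic cDC1 (log2 fold change 5.29 ± 0.29, adjusted p = 1.21e-10). Its known receptor Plxna1 measured 1236, 1161, 1028 and 908 in thymic cDC1 against 119, 137, 179 and 121 in splenic cDC1 (log2 fold change 2.96 ± 0.30, adjusted p = 6.5e-07), and Sema4b 592, 548, 459 and 386 in thymic cDC1 against 32.9, 43.4, 70.2 and 29.5 in splenic cDC1 (log2 fold change 3.53 ± 0.30, adjusted p = 3.95e-08). Nrp2, a coreceptor of semaphorins, measured 71, 38.3, 29.6 and 63.7 in thymic cDC1 against 10.3, 15.8, 10.2 and 12 in splenic cDC1. These 4 genes were without overlap between the groups.

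Of the 3 metallothioneins with reads, Mt1, Mt2 and Mt3, Mt3 passed the test. Mt1, which lies close to it on chromosome 8, measured 313, 501, 674 and 366 in thymic cDC1 against 415, 276, 598 and 423 in splenic cDC1 (log2 fold change 0.11 ± 0.29, adjusted p = 0.905), and Mt2 9.29, 9.99, 9.36 and 12.1 in thymic cDC1 against 9.26, 0, 10.2 and 3.21 in splenic cDC1 (log2 fold change 1.25 ± 0.64, adjusted p = 0.275). The values of Mt1 overlapped between the groups. The letters of the metal response element core, TGCNCNC on either strand, occur in 53.6% of all promoter windows, and those of Mt1, Mt2 and Mt3 held 3, 6 and 3 matches. Of the 26 metallothionein and metal transport genes tested, 2 rose and 3 fell (median -0.03). The 3 that fell take part in iron or heme handling: Slc11a1, the phagosomal metal transporter NRAMP1, measured 718, 813, 665 and 549 in thymic cDC1 against 3113, 2688, 3938 and 2786 in splenic cDC1 (log2 fold change -2.19 ± 0.31, adjusted p = 3.63e-05), and Hmox1, which degrades heme, 131, 169.9, 220.0 and 157 in thymic cDC1 against 1395, 795, 1551 and 759.7 in splenic cDC1 (log2 fold change -2.68 ± 0.34, adjusted p = 1.12e-05). Slc40a1, the iron exporter ferroportin, fell from 47.4, 212, 70.2 and 188 to 14.4, 3.33, 18.7 and 3.03. Beside Mt3, the zinc transporter Slc30a4 rose from 114, 111, 109 and 82.4 to 416, 411, 247 and 509.

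Many inhibitory and Siglec-type receptors fell. Of 27 tested, 15 fell, 2 rose and 10 did not pass the test (median -1.42), so 55.6% fell beside 4.52% of all genes tested. Cd22, a Siglec best known from B cells, measured 115, 99.1, 87.4 and 78.8 in thymic cDC1 against 524, 975, 900.4 and 725 in splenic cDC1 (log2 fold change -3.0 ± 0.45, adjusted p = 7.5e-05). Cd300a, a receptor for lipids of dying cells with inhibitory motifs, measured 248, 229.9, 319.9 and 252 in thymic cDC1 against 1395, 1529, 1656 and 1569 in splenic cDC1 (log2 fold change -2.56 ± 0.47, adjusted p = 0.000602), and Cd300lf 71.8, 68.3, 62.4 and 76.8 in thymic cDC1 against 428, 470.4, 597 and 491 in splenic cDC1 (log2 fold change -2.81 ± 0.45, adjusted p = 0.000155). Klrd1, which encodes CD94, fell from 782, 762, 413 and 782 to 157, 152, 137 and 139. In splenic cDC1 these genes were at 12.1% (Cd22), 21.7% (Cd300a), 14.8% (Cd300lf) and 18.4% (Klrd1) of their splenic cDC2 means, and the list also holds the cDC2 genes Sirpa and Sirpb1a. The fall of cDC2 markers is given above, and its part in the fall of these receptors was not tested.

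C-type lectins changed in both directions. Of 27 tested, 5 rose and 8 fell. Cd207, which encodes langerin, measured 4764, 5368, 5850.0 and 5023 in thymic cDC1 against 934, 767, 770.2 and 812 in splenic cDC1 (log2 fold change 2.68 ± 0.54, adjusted p = 0.00143). Klrb1b, an inhibitory receptor of the NK receptor complex, measured 981, 1062, 1177 and 1067 in thymic cDC1 against 52.5, 77.9, 32.3 and 57.6 in splenic cDC1 (log2 fold change 4.32 ± 0.56, adjusted p = 1.22e-05), while Klra17 of the same complex measured 8.45, 9.16, 6.24 and 3.03 in thymic cDC1 against 217, 144, 123 and 156 in splenic cDC1 (log2 fold change -4.44 ± 0.77, adjusted p = 0.000339). Ly75, which encodes DEC-205, was at 4141 ± 598 against 3392 ± 566 and did not pass. In both Klr genes the groups were apart. Reads of Klra17 and Klrb1b may be shared with related genes, and Klrb1b shares 26.9% of its exon bases with another annotated gene on its strand.

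Uptake receptors fell in 7 and rose in 5 of 32 tested. Axl, a TAM receptor for phosphatidylserine-bound ligands, rose from 41.2, 133, 123 and 95.3 to 355, 289, 334 and 284 (log2 fold change 1.80 ± 0.38, adjusted p = 0.00216). Itgb3 and Stab2, both receptors that can take part in clearing dying cells, fell: Itgb3 measured 33.8, 36.6, 37.4 and 40.4 in thymic cDC1 against 213, 158, 313 and 179 in splenic cDC1 and Stab2 24.5, 6.66, 14 and 51.5 in thymic cDC1 against 128, 121, 121 and 127 in splenic cDC1. Havcr2, which encodes TIM-3, and Cd36 were at 9616 ± 612 against 14220 ± 2270 and 7092 ± 426 against 8809 ± 2424 and did not pass.

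The pattern-recognition receptors that rose were the RNA sensors Ddx58 and Ifih1. Of 29 tested, 2 rose and 3 fell (median -0.28). Beside Tlr5, the single-stranded RNA receptor Tlr7 fell from 107, 158, 134 and 105 to 21.1, 45.8, 6.24 and 23.2 (log2 fold change -2.60 ± 0.71, adjusted p = 0.0163). Tlr3 and Tlr11, receptors typical of cDC1, did not pass, at 4393 ± 933 against 6518 ± 2421 and 4828 ± 484 against 7030 ± 2098. Tlr9 did not pass either, at 1700 ± 360.2 against 1192 ± 358. It was shared with cDC2, since these means were 116% of its thymic and 85.5% of its splenic cDC2 mean.

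Among genes of antigen presentation, 1 of 19 class II genes rose (5.26%) and 1 fell (5.26%). Of 31 class I genes, 1 rose (3.23%) and 4 fell (12.9%). Of all genes tested, 4.26% rose and 4.52% fell. H2-Oa, a subunit of the inhibitor of peptide loading on class II, measured 1731, 2218, 2533 and 1558 in thymic cDC1 against 4174, 3990.3, 6053 and 4415 in splenic cDC1 (log2 fold change -1.22 ± 0.18, adjusted p = 4.66e-05), and H2-Eb2 799, 842, 738 and 910.5 in thymic cDC1 against 444, 344, 405 and 325 in splenic cDC1 (log2 fold change 1.12 ± 0.16, adjusted p = 2.97e-05). Ciita, the class II transactivator, measured 18970 ± 3311 against 26000 ± 4194, and Rfx5 1546 ± 204 against 2041 ± 250.3, and neither passed. For class I, Tap1 measured 12650 ± 1978 against 10980 ± 2733 and did not pass, while B2m measured 52955, 71108, 69788 and 54127 in thymic cDC1 against 45468, 41627, 30909 and 43842 in splenic cDC1, higher in all 4 thymic libraries (adjusted p = 0.0359) but within 2-fold.

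Of the 4 genes of the class I list that fell, 3 have roles in cross-presentation or in lipid presentation. Cybb, the catalytic subunit of the phagosomal NADPH oxidase, measured 291, 272, 134 and 161 in thymic cDC1 against 1517, 1602, 1601 and 1447 in splenic cDC1 (log2 fold change -2.91 ± 0.30, adjusted p = 6.74e-07), and Rac2, the GTPase that directs its assembly in CD8+ dendritic cells, 721, 949, 936 and 531 in thymic cDC1 against 3029.6, 3486, 5314 and 3577 in splenic cDC1 (log2 fold change -2.30 ± 0.23, adjusted p = 5.43e-07). Cd1d1, which presents lipids to NKT cells, measured 545, 677, 573 and 582 in thymic cDC1 against 3459.9, 3458, 2721 and 3674 in splenic cDC1 (log2 fold change -2.48 ± 0.15, adjusted p = 6.37e-10).

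Endosomal proteases changed in 2 of 21 tested. Prss16, which encodes the thymus-specific serine protease, measured 22, 60.8, 59.3 and 45.5 in thymic cDC1 against 8.24, 13.8, 1.85 and 3.85 in splenic cDC1 (log2 fold change 2.76 ± 0.61, adjusted p = 0.00331). Ctsa fell from 1653, 2158, 3344 and 2054 to 574, 645, 883 and 449 (log2 fold change -1.84 ± 0.26, adjusted p = 3.85e-05). Ctss, Ctsl, Ctsb and Ctsd did not pass, at 13410 ± 1448 against 11590 ± 668, 177 ± 27.4 against 218 ± 30.4, 7810 ± 1162 against 8840 ± 1237 and 220.2 ± 102 against 187 ± 51.7. Lgmn, asparagine endopeptidase, was at 679.9 ± 84 against 1033 ± 246 and lower in thymic cDC1 with an adjusted p of 0.0484, within 2-fold. Among serpins, which inhibit proteases, Serpinb1a and Serpinb8 fell beside Serpinb2 (log2 fold changes -1.84 and -1.78).

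Transcription factors of dendritic cells changed in 6 of 39. Zeb2, a repressor in cDC2 and pDC, fell from 362, 336, 353 and 273 to 91.2, 45, 14 and 80.8 (log2 fold change -2.79 ± 0.36, adjusted p = 1.33e-05). Rara, the retinoic acid receptor alpha, rose from 573, 486, 1032 and 519 to 2565, 2650.2, 2740.1 and 1717 (log2 fold change 1.93 ± 0.27, adjusted p = 3.51e-05), as did its partner Rxra (log2 fold change 1.47 ± 0.30, adjusted p = 0.00179). Aldh1a2, which makes retinoic acid, was almost absent from thymic cDC1: it measured 1.69, 0, 0 and 1.01 in thymic cDC1 against 51.5, 30.6, 70.2 and 35.7 in splenic cDC1, the thymic libraries holding 3 reads together. Smad3, a mediator of TGF-β signals, fell from 645, 488, 586 and 432 to 66.7, 65, 57.7 and 79.8 (log2 fold change -2.97 ± 0.23, adjusted p = 1.05e-08). Notch2 itself measured 7867 ± 1464 against 9146 ± 1708 and did not pass.

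Costimulatory molecules changed in both directions, with 5 of 32 higher and 4 lower. Cd86 and Cd80 measured 10770 ± 326 against 8550 ± 1243 and 1549 ± 48.6 against 1862 ± 479 and did not pass. Of members that passed, Cd40 rose from 817, 723, 1045 and 795 to 1709, 1834, 2494 and 1717 (log2 fold change 1.19 ± 0.17, adjusted p = 3.09e-05), and Lgals9, which encodes galectin 9, from 606, 631, 743 and 604 to 3744, 4723, 5635 and 3648 (log2 fold change 2.76 ± 0.26, adjusted p = 2.18e-07). Tnfsf13b, which encodes BAFF, rose from 34, 57.2, 47.1 and 59.9 to 239, 343, 319.9 and 253. Cd274, which encodes PD-L1, fell from 1422, 1011, 1146 and 878 to 491, 473, 495 and 499 (log2 fold change -1.16 ± 0.14, adjusted p = 5.44e-06), and Lag3 from 537, 761, 1233 and 669 to 264, 339.8, 348 and 182.

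The same mixture held for the markers of mature dendritic cells, of which 5 of 24 rose and 3 fell. Apol7c, which disrupts phagosomes in cross-presenting cDC1, fell strongly: it measured 384, 378, 367 and 462 in thymic cDC1 against 6337, 7062, 5638 and 6704 in splenic cDC1 (log2 fold change -4.01 ± 0.13, adjusted p = 4.66e-14). In mature thymic cDC1 the same gene was at 47635, 39265 and 53929. Ccl22 and Cacnb3, in contrast, were higher in thymic than in splenic immature cells and far higher in mature thymic cDC1, at 142734, 123168 and 171998 and 85329, 87332 and 109519.6. Cacnb3 measured 325, 217, 301 and 152 in thymic cDC1 against 28.8, 24.7, 45.3 and 59.7 in splenic cDC1 (log2 fold change 2.64 ± 0.34, adjusted p = 1.15e-05). Fscn1 measured 431, 339.8, 421 and 273 in thymic cDC1 against 281, 379, 1009 and 371 in splenic cDC1 and did not pass, against 164339, 156981 and 209834 in mature cells. The summed level of the list was 29792 to 33791 in thymic and 29636 to 32849 in splenic immature cDC1, and 904687 to 1118924 in mature thymic cDC1.

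Cell cycle genes were mostly somewhat higher in thymic cDC1. Of 54 tested, 8 rose (14.8%, beside 4.26% of all genes tested) and none fell. A positive log2 fold change was seen for 49, and the median was 0.55. Cdk1, the kinase that starts mitosis, measured 1546, 1605, 1930.2 and 1873 in thymic cDC1 against 838, 799, 565 and 805 in splenic cDC1 (log2 fold change 1.22 ± 0.15, adjusted p = 7.69e-06). Cenpe, a kinesin of the kinetochore, measured 2810.5, 2537, 2108 and 2368 in thymic cDC1 against 1315, 1206, 658 and 1072 in splenic cDC1 (log2 fold change 1.25 ± 0.21, adjusted p = 0.000307), and Ccnb1 1025, 833, 1075 and 825 in thymic cDC1 against 371, 491, 283 and 435 in splenic cDC1. Cdkn1a, the cell cycle inhibitor p21, rose as well (2102, 2022, 3104 and 1837 in thymic cDC1 against 531, 364, 548 and 376 in splenic cDC1). Mki67 and Top2a were at 11640 ± 1766 against 8152 ± 1917 and 8475 ± 504 against 5146 ± 1337 and stayed within 2-fold, and the replication gene Mcm5 was at 3961 ± 642 against 3698 ± 680.4. Splenic sample 3 was the lowest of the splenic samples for Mki67, Top2a, Cdk1 and Cenpe.

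Lipid and arachidonic acid metabolism differed in single steps. Ptgs2, which encodes cyclooxygenase 2, measured 128, 208, 54.6 and 233 in thymic cDC1 against 1823, 2365, 1597 and 1789 in splenic cDC1 (log2 fold change -3.78 ± 0.35, adjusted p = 1.62e-07), and Hpgd, which degrades prostaglandins, fell from 371, 418, 184 and 385 to 64.2, 61.6, 53.1 and 46.5 (log2 fold change -2.51 ± 0.37, adjusted p = 5.81e-05). Of 20 eicosanoid genes, 3 fell and 1 rose, the latter being Ltc4s, leukotriene C4 synthase, which rose from 13.4, 14.8, 19.4 and 17.3 to 56.6, 132, 84.3 and 58.6. Dgat2, the last enzyme of triglyceride synthesis, measured 1138, 1251, 1320.1 and 1001 in thymic cDC1 against 118, 105, 201.3 and 132 in splenic cDC1 (log2 fold change 3.11 ± 0.49, adjusted p = 0.000128). Genes of cholesterol synthesis and uptake were lower with 21 of 22 at a negative log2 fold change (median -0.41), but only Hsd17b7 passed (log2 fold change -1.66 ± 0.25, adjusted p = 6.27e-05).

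Glucose and amino acid genes also changed in part. Slc2a3, the glucose transporter GLUT3, fell from 917, 776, 1094 and 874 to 263, 194, 176 and 193 (log2 fold change -2.15 ± 0.19, adjusted p = 7.36e-08), and Hk3, a hexokinase of myeloid cells, fell with it (log2 fold change -2.0 ± 0.31, adjusted p = 9.49e-05). Slc2a1 and Slc2a6 rose (log2 fold changes 1.15 and 1.99), as did Ndrg1 (log2 fold change 2.52 ± 0.16, adjusted p = 5.72e-10), a gene raised by hypoxia and other stress. Asns, asparagine synthetase, measured 555, 445, 959.7 and 532 in thymic cDC1 against 32.9, 72, 60 and 52.1 in splenic cDC1 (log2 fold change 3.49 ± 0.41, adjusted p = 3.41e-06). Cd38, an enzyme that consumes NAD, fell from 1021, 868, 509.8 and 752 to 152, 157, 120.2 and 166. Ier3, an early response gene, was the single member of 30 immediate-early and stress genes that rose (2339.9, 2701, 2649.6 and 2559 in thymic cDC1 against 214, 359, 246 and 427 in splenic cDC1), and Fosl2 the single one that fell (log2 fold change -1.31 ± 0.20, adjusted p = 0.000105).

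**Figure D4:**
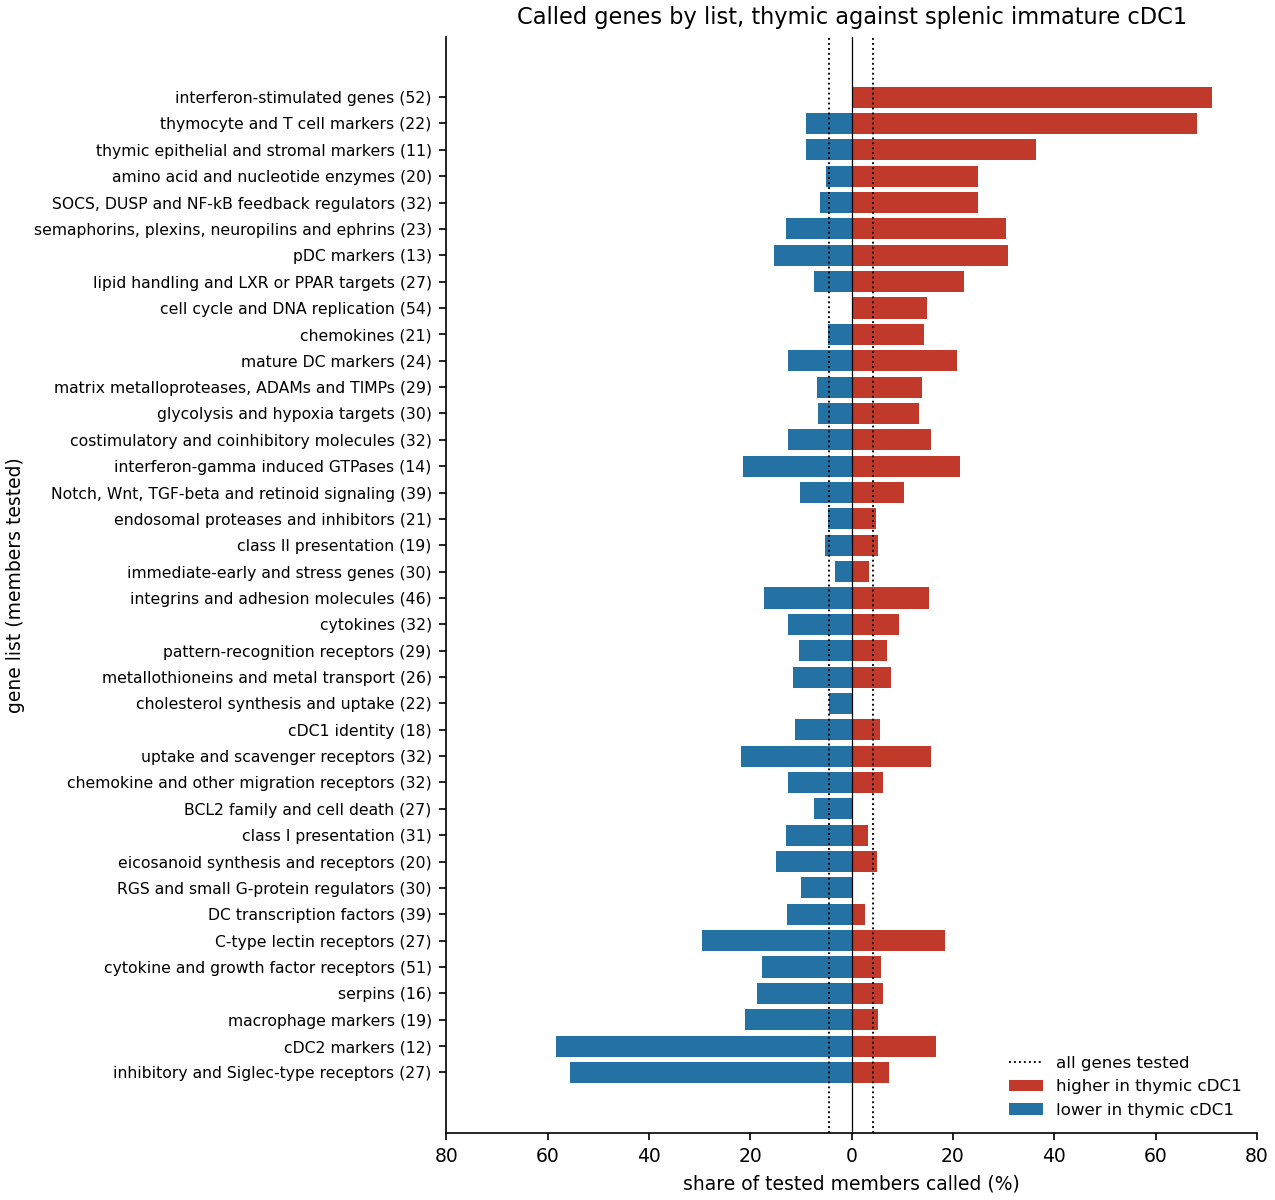
Share of the tested members of each gene list that rose (red, to the right) or fell (blue, to the left) in thymic against splenic immature cDC1, for lists with at least 10 members tested, the number of which stands in parentheses. Dotted lines mark the shares over all genes tested, 4.26% higher and 4.52% lower. Interferon-stimulated genes and T cell markers reach furthest to the right, and cDC2 markers and inhibitory receptors furthest to the left.

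Transcripts of other cells differed between the tissues at low levels. Of 22 thymocyte and T cell markers tested, 15 rose (68.2%) and 2 fell (9.09%), beside 4.26% and 4.52% of all genes tested. Rag1, the recombinase of developing lymphocytes, measured 44.8, 48.3, 21.8 and 75.8 in thymic cDC1 against 0, 0, 0 and 0.637 in splenic cDC1, and Cd3d 11, 9.99, 25 and 4.04 in thymic cDC1 against 0, 0, 0 and 1.76 in splenic cDC1. Cd3e measured 5.91, 5, 7.8 and 11.1 in thymic cDC1 against 2.06, 1.97, 0 and 1.27 in splenic cDC1, and lost its call with a pseudocount of 8 and without sample 3 of both groups (log2 fold changes 0.72 and 1.53). The summed level of the whole list was 855 to 1140 in thymic and 1754 to 2420 in splenic cDC1, since Cd4 and Satb1, which dendritic cells express as well, were lower in thymic cDC1. Mature thymic cDC1 held 13672 to 14477.

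Some epithelial markers also differed. Of 11 thymic epithelial and stromal markers tested, 4 rose and 1 fell, and the summed level was 1014 to 1165 in thymic and 1749 to 2122 in splenic cDC1, most of it Epcam and Pecam1. Krt8, a keratin, measured 41.4, 55, 49.9 and 19.2 in thymic cDC1 against 0, 1.97, 2.77 and 4.18 in splenic cDC1, while Foxn1, the defining factor of thymic epithelium, had 2.53, 0, 1.56 and 1.01 in thymic cDC1 against 0, 0, 0 and 0 in splenic cDC1.

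Markers of blood and spleen were higher in splenic cDC1. Of 8 B cell markers tested, 5 fell (62.5%, beside 4.52% of all genes tested) and none rose. The summed level of the list was 3747 to 6053 in thymic and 6319 to 8446 in splenic cDC1. Ms4a1, which encodes CD20, measured 83.6, 113, 84.3 and 111 in thymic cDC1 against 903, 852, 410.1 and 876 in splenic cDC1. Most of the summed level was Ighm, at 4651 in thymic and 6590.1 in splenic cDC1. Of 4 erythroid and platelet markers tested, 2 fell. Hba-a1, a globin gene whose reads may be shared with its copy, had no read in any thymic library and 3.09, 20.7, 29.6 and 10.1 in the splenic samples, at least 3.39-fold higher when 3 reads per library are taken as the limit. Hbb-bs measured 0, 0.833, 0 and 0 in thymic cDC1 against 23.7, 21.7, 39.7 and 29.2 in splenic cDC1.

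Of 19 macrophage markers, 1 rose and 4 fell. The 1 that rose was Axl, described with the uptake receptors. Those that fell included Hmox1, Slc40a1 and Spic, which are genes of the red pulp macrophages of the spleen. Spic measured 1.69, 13.3, 17.2 and 10.1 in thymic cDC1 against 73.1, 71, 52.6 and 62.8 in splenic cDC1. The summed level was 6261 to 9940 in thymic and 9909 to 12924 in splenic cDC1. Adgre1, which encodes F4/80, measured 86.2, 81.6, 81.1 and 142 in thymic cDC1 against 142, 118, 83.1 and 127 in splenic cDC1, and C1qa 98, 88.3, 109 and 59.6 in thymic cDC1 against 10.3, 51.3, 53.6 and 55.1 in splenic cDC1, neither passing the test. None of 6 NK and ILC markers and none of 4 neutrophil markers tested passed, with Klrb1c at 0 in all 8 samples and the group means of Ncr1, Ly6g and S100a8 below 1. Other members of the NK and ILC list were expressed, since its summed level was 2778 to 3118 in thymic and 2487 to 4191 in splenic cDC1. Of 13 pDC markers, 4 rose (30.8%) and 2 fell (15.4%), beside 4.26% and 4.52% of all genes tested. Bst2, described with the interferon-stimulated genes, was among those that rose. Siglech, the defining pDC receptor, measured 413, 468, 323 and 452 in thymic cDC1 against 188, 341, 314 and 359 in splenic cDC1 (log2 fold change 0.49 ± 0.66, adjusted p = 0.769), and Spib fell from 238, 334, 631 and 333 to 94.6, 50.8, 32.8 and 34.4. The summed level of the pDC list was 5988 to 6847 in thymic and 4736 to 5259 in splenic cDC1. The part that such cells or their RNA had in the differences of these marker genes, of Hmox1 and Slc40a1, and of Epcam and Krt8 was not tested.

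Whether a tissue difference was particular to cDC1 was tested against immature cDC2 of the same tissues in the same fit. The tissue effect differed between cDC1 and cDC2 for 746 of 14970 genes (4.98%), 269 of them among the 1313 genes called in cDC1. Among the genes that rose, 139 of 637 had a different effect in cDC2, larger in cDC1 for 85. Among those that fell, 130 of 676 did, and the fall was deeper in cDC1 for 123. These genes were chosen by their effect in the same cDC1 samples, which favours a larger effect in cDC1. In cDC2 the direction was the same for 579 of the 637 and 557 of the 676 genes. Of these, 394 and 302 were also called in cDC2. Over all 14970 genes, 10739 had the same direction in both subsets, and 1779 of them were called in cDC2. Immature cDC1 and cDC2 libraries carried the same pool numbers, and no library entered both effects. Where a group had few or no reads, the size of such a difference depends on the constant added before taking logs.

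Mmp14 separated the tissues more in cDC1, since splenic cDC2 expressed it at 512, 364 and 666 and thymic cDC2 at 3043, 1739.6 and 2544 (difference of log2 fold changes 4.69 ± 0.52, adjusted p = 8.07e-06). F11r behaved in the same way, with 449, 317 and 504 in splenic and 3387, 3381 and 3422 in thymic cDC2 (3.32 ± 0.28, adjusted p = 2.85e-07). Padi1 and Btnl4 were close to 0 in cDC2 of both tissues, with 1.07, 1.34 and 1.56 for Padi1 and 0, 0 and 1.56 for Btnl4 in thymic cDC2 (differences 5.68 ± 1.04, adjusted p = 0.00182 and 6.36 ± 1.33, adjusted p = 0.00545). The Padi1 difference did not pass with edgeR (4.80 with both scalings) or with a pseudocount of 0.1 (4.37). Ank2 reached 65.1, 69.6 and 32.7 in thymic cDC2 and had the larger effect in cDC1 (3.35 ± 0.63, adjusted p = 0.0022). Shisa7 was at 11.7, 12.7 and 20.2 in thymic and at 0 in all 3 splenic cDC2 samples, so that the size of its effect in cDC2, and with it the comparison of effects, cannot be given. Mt3 was at 47, 41.5 and 49.8 in thymic and at 0 in all 3 splenic cDC2 samples, and the difference of effects did not pass (adjusted p = 0.708).

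Other thymic genes had the larger effect in cDC2. Itgae was at 4697, 5812 and 6455 in thymic and 36.6, 15 and 19.6 in splenic cDC2 (-4.58 ± 0.52, adjusted p = 1.12e-05), Cldn1 at 11039.8, 15255 and 13654 and 76.9, 66.9 and 27.7 (-1.91 ± 0.41, adjusted p = 0.00678), and Ccl17 at 5196, 5284 and 6586 and 11, 0 and 11.4 (-4.32 ± 0.94, adjusted p = 0.00732). Of the interferon-stimulated genes, the oligoadenylate synthetases differed more in cDC1 (Oas1g 2.86 ± 0.47, adjusted p = 0.000682, Oas3 2.40 ± 0.38, adjusted p = 0.000472), while for Isg15 and Irf7 the difference did not pass (adjusted p = 0.255 and 0.874).

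On the splenic side, Gp2, Pcsk5 and Adgrf5 were low in splenic cDC2. Gp2 was at 13.7, 18.1 and 22.8 in splenic and at 0 in all 3 thymic cDC2 samples, so that its effects in cDC1 and cDC2 cannot be compared in size. Pcsk5 was at 0 in all 3 splenic cDC2 samples and at 1.07, 0 and 0 in thymic cDC2 (difference -6.32 ± 0.77, adjusted p = 2.59e-05), and this difference did not pass with edgeR (adjusted p = 0.143 and 0.144). Adgrf5 was at 0.915, 3.75 and 0 in splenic cDC2 and its effects differed (-6.49 ± 1.09, adjusted p = 0.000811). Apol7c was at 355, 354 and 324 in splenic and 469.7, 603 and 706 in thymic cDC2 (-4.78 ± 0.20, adjusted p = 1.11e-11), so that among these 4 immature populations it was high in splenic cDC1 alone. Irf4 was high in cDC2 of both tissues, at 8542, 10832 and 9003 in the thymus and 6001, 5535 and 5439 in the spleen (-3.57 ± 0.40, adjusted p = 9.37e-06). Serpinb2 was lower in thymic cDC2 as well (4.27, 4.02 and 7.79 against 111, 141 and 58.7), and its difference of effects did not pass (adjusted p = 0.183).

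**Figure D5:**
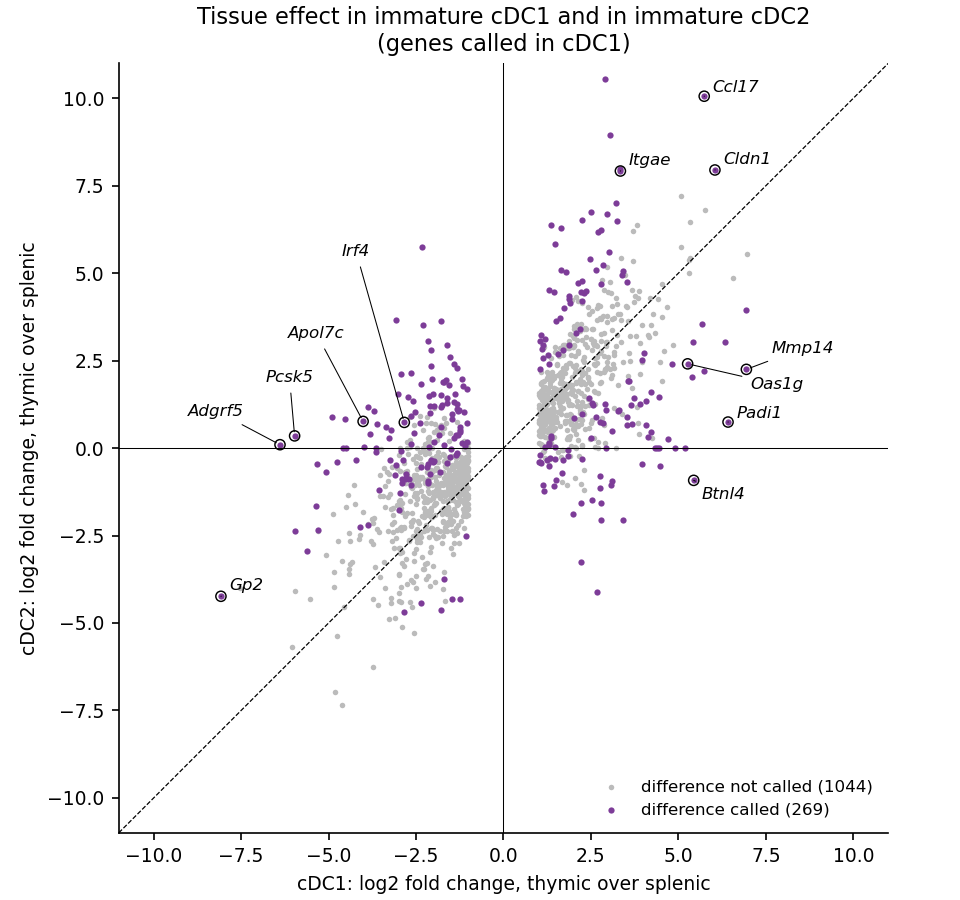
Log2 fold change of thymic over splenic cells in immature cDC1 (horizontal) and in immature cDC2 (vertical) for the 1313 genes called in cDC1, with the dashed line marking equal effects. Purple points (269) had a tissue effect that differed between cDC1 and cDC2, and grey points (1044) did not pass that test. Circled genes are named in the text. Padi1, Btnl4, Pcsk5 and Adgrf5 lie close to the horizontal axis, Mmp14 lies between it and the diagonal, and Itgae, Ccl17 and Cldn1 lie above the diagonal.

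For some of the genes that differed between thymic and splenic immature cDC1, levels in mature thymic cDC1 are given. A difference by maturation was not tested, because the thymic immature samples would serve in both comparisons. Zmynd15 was at 30637, 30939.7 and 39084 and Sema6d at 15781, 14817 and 16284 in mature thymic cDC1, above both immature groups. Mt3 was at 18.4, 0 and 15.2, Shisa7 at 9.22, 13.9 and 4 and Padi1 at 0, 3.47 and 8, below thymic immature cDC1. Gp2 had no read in the 3 mature samples. Mmp14 was at 2455, 1152 and 2604 and F11r at 5582, 5154 and 6609.9, above every splenic cDC1 sample, and Itgae at 210.1, 107 and 372, below every one of them.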

How the data were processed

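RNA of sorted dendritic cells was sequenced from a stranded mRNA kit. Per the methods of the study, the authors aligned reads to mm10 with STAR (2.6 in the submitters' processing notes), counted them per gene with HTSeq-count and divided counts by DESeq2 (1.24.0) size factors. The deposited values are this signal, the normalized read count. The strand setting of the counting is not given in the sources used here.

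From the deposited values, whole reads were recovered in every library (100.0% of values whole), giving the depths. Genes with at least 10 in at least 3 samples were kept (14970 of 37734). log2(value + 1) was fitted with limma 3.58.1 in R 4.3.3 over 20 samples in 6 groups, with the trend option, and genes were called at an adjusted p below 0.1 and over 2-fold. The interaction compared the tissue effect of cDC1 and cDC2. edgeR 4.0.16 and DESeq2 1.42.0 on recovered reads were alternatives, as were other pseudocounts, filters, thresholds, scalings, lanes, pools and left-out samples. The scripts were tested on simulated data. Counting intervals cover counting error only.

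The members, gene lists and rules were chosen with earlier results of these data known. Named genes were Mmp14, Gp2, the 12 genes with the largest change in each direction (no overlap between groups, mean of at least 100 in the higher group), up to 6 called members of each list (mean of at least 50) with its defining members, the sorting genes and the antigen-processing genes. A few genes named for their part in a list's sum were chosen after their values were seen, and some genes that the rule names are not reported here. Positions are from GENCODE M21, and promoters from RefSeq (GRCm38.p6).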

Additional observations from a re-analysis of the deposited data

Results flagged for a closer look

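The tissue effect differed between immature cDC1 and cDC2 by the interaction term of the limma fit (Benjamini-Hochberg adjusted p below 0.1, over 2-fold) for these named genes, with the cDC1 effect minus the cDC2 effect on the log2 scale in parentheses. Of genes that rose in thymic cDC1, the effect was more positive in cDC1 for Mmp14 (4.69), Shisa7 (2.99), Padi1 (5.68), F11r (3.32), Zmynd15 (2.15), Btnl4 (6.36), Ank2 (3.35), Oas1g (2.86), Ifi204 (1.3), Oasl1 (1.44), Oas1a (2.31), Oas3 (2.40), H2-Eb2 (2.17), Ddx58 (1.13), Sema4b (2.63) and Ndrg1 (1.23). It was more negative than in cDC2, that is, smaller or turned, for Cldn1 (-1.91), Ccl17 (-4.32), Itgae (-4.58), Ccl22 (-3.45), Cacnb3 (-2.44), Epcam (-1.65), Cdh1 (-4.67), Mmp25 (-1.57), Slc30a4 (-1.08), Il6 (-2.58) and Ifnlr1 (-1.91). Of genes that fell, the effect was more negative in cDC1 for Gp2 (-3.84), Adgrf5 (-6.49), Pcsk5 (-6.32), Gpm6b (-3.59), Ptgis (-2.69), Tlr5 (-3.70), Sirpb1a (-2.96), Cd8a (-3.62), Irf4 (-3.57), Sirpa (-1.64), Apol7c (-4.78), Spib (-2.53), Pecam1 (-2.99), Zeb2 (-2.05), Gbp4 (-1.36), Gbp2 (-2.37), Cybb (-1.92), Serpinb1a (-2.21), Serpinb8 (-2.96), Ccr1 (-4.87), Cadm3 (-1.24), Lag3 (-2.30), Klrd1 (-1.71), Smad3 (-1.68), Aldh1a2 (-5.80) and Hk3 (-3.21). Genes that did not pass in cDC1 but whose effects differed were Esam (2.70), Fscn1 (-2.87), Ly75 (-2.17), Havcr2 (-1.07), Cxcl9 (-1.73) and Il12b (-1.30). In Gp2, Pcsk5, Ptgis and Shisa7 a cDC2 group had no read, so these sizes depend on the constant added before taking logs. The differences of Gp2, Pcsk5, Ptgis, Shisa7 and Padi1 did not pass with edgeR, and that of Ptgis turned there to 0.67 (0.24 with a pseudocount of 0.1). With a pseudocount of 0.1 those of Tlr5, Ccl17 and Cdh1 did not pass either.

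Single samples stood apart from the other 3 of their group for 18 gene and group combinations (Dixon's test at the 95% level). Of 360 combinations, only those with a group mean of at least 10 were examined. Chance flags about 1 in 20 of those examined. Splenic sample 3 held 12 of them, with the highest normalized read count for Dtx1 (293), Cd4 (783), Fscn1 (1009), Rara (1032), Oasl1 (172), Tap1 (15051), Ltb (799.8), Socs3 (344) and Slc2a1 (609.5) and the lowest for Ms4a1 (410.1), Klrd1 (413) and Cdk1 (565). The others were Cd40 in thymic library 3 (2494), Adgre1 in thymic library 4 (142), C1qa in splenic sample 1 (10.3), Ctsd in thymic library 3 (371), Ccr1 in thymic library 4 (23.2) and Slc30a4 in splenic sample 4 (82.4).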

How the results depend on the processing

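Of the 138 called genes named, 125 kept their call and direction under every alternative run, 13 lost it under at least 1, and none turned. Many of these genes were chosen for large changes without overlap, which favours keeping the call. Of all 1313 calls, 773 were kept in lane 8 alone, 1063 with 1 sample per pool and 1069 without replicate 3 of both groups. No called gene of the 1313 changed sign in any alternative. With a value of at least 10 required in every cDC1 sample, which tests fewer genes, 724 were called (365 higher, 359 lower), and lane 8 alone, with fewer samples, gave 844 (410 lower). Without a threshold on fold change 2308 were called (1156 higher, 1152 lower), and above 4-fold 656 (321 and 335). edgeR called 1361 (TMM) or 1370 (RLE), DESeq2 1492, and 1 sample per pool 1108. Leaving out 1 sample gave 1171 to 1326, and leaving out replicate 3 of both groups, an alternative chosen after seeing the data, 1175. The interaction count of 746 ranged from 513 to 1071.
Genes that did not pass had signs that turned. Leaving out 1 sample at a time gave -0.251 to 0.086 for Batf3, -0.532 to 0.081 for Fscn1, -0.101 to 0.331 for Ctsd and -0.0956 to 0.283 for Mt1, and without replicate 3 of both groups Fscn1 was at 0.0059. In lane 8 alone the values were -0.0141 for Ctsd, 0.0288 for Cd36, -0.0126 for Mt1, 0.0656 for Cd80 and -0.0465 for Mcm5, and with lane as a covariate Mt1 was at -0.0047. The Ptgis difference between cDC1 and cDC2 turned to 0.67 with edgeR under both scalings and 0.24 with a pseudocount of 0.1. The cause was not tested. In lane 8 alone Ccnb1, Ccr1, Cd3d, Clec10a, Clec9a, Il1r2, Slc2a1, Slc40a1, Stab2, Tlr7 and Tnfsf13b lost their calls, as did Cd3d and Cd3e with a pseudocount of 8, Stab2 and Tlr7 with 0.1, and Ccnb1, Cd3e, Il1b, Stab2 and Tlr7 without replicate 3 of both groups. Of the 59 named differences between cDC1 and cDC2, 45 kept their call under every alternative. The Slc30a4 difference was lost with no filter on low values and without replicate 3 of both groups. Leaving out splenic sample 1 or 2, or thymic library 1, 2 or 3, also removed its call. Oasl1 lost its difference without splenic sample 4 or thymic library 2, and Ddx58 without thymic library 4. Havcr2 lost it with 1 sample per pool and Cadm3 without replicate 3 of both groups. No paired fit could be made between the tissues, whose libraries shared no pool number. For the difference between cDC1 and cDC2, pool as a replicate block in the 14 immature samples, chosen after seeing the data, gave 1071 genes (1019 in these samples without the block). Zeb2 and Slc30a4 were not called there, and the other 57 named differences were. Deviations of same-pool libraries correlated at -0.15 to 0.461, and those of libraries from different pools at -0.492 to 0.341. These ranges overlap without deciding the question, and the numbers were not taken to pair samples.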
